A study of Gallus gallus with 24 samples.

Results

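The collagen genes of the embryonic chicken gonad were followed in the left and the right gonad of female embryos. They were taken as every row of the gene table whose name is COL, a number, A and a number, with at least 10 read counts in 3 or more libraries, which gave 41 of 24154 genes. All 41 also passed the filter on low counts, which kept 16694 genes in all. Of the members, 9 encode fibrillar collagens, 8 collagens of basement membranes, 10 collagens of the FACIT class and 14 other collagens. The libraries were made from poly(A) RNA of whole gonads of the Leghorn breed, with left and right gonads collected apart at embryonic day (E) 5, 6.5, 8 and 9.5. The groups are thus left and right gonads at E5, left and right at E6.5, left and right at E8, and left and right at E9.5, with 3 libraries in each and 24 in all. No treatment or engineered allele is given in the labels. It is not stated if a group's 3 libraries stand for separate embryos, for pools or for repeated preparations. The p-values therefore measure only how these samples spread, and that spread may be technical.

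Collagens are mostly secreted proteins built from a triple helix of chains, which may be identical or come from several genes. Fibrillar collagens assemble into the striated fibrils that give connective tissue its strength, and FACITs (fibril-associated collagens with interrupted triple helices) sit on the fibril surface. Type IV collagens form the network of basement membranes under epithelia and around vessels, and several other collagens form microfilaments or anchoring fibrils or span the cell membrane. In hens the left gonad alone grows into a functional ovary with a thick cortex, and the right one regresses. In both gonads the matrix lies between the surface epithelium and the medullary cords.

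Total counts ran from 15078282 to 19970859 per library, and collagen genes took 0.666% to 1.30% of them. Levels are given as CPM, each library's counts scaled to the same total, and differences as log2 fold changes with the standard error (SE) after the ± sign. A gene is called where the adjusted p is under 0.05 (edgeR's quasi-likelihood test, Benjamini-Hochberg over the 16694 genes). Positive log2 values mean more reads on the left, or at the later stage. Reads per gene also depend on transcript length, which was not used here, so levels are compared between groups and not between genes. Markers of gonadal stroma, such as TCF21, and of germ cells, such as DDX4, were read in every library, while UPK3B of the surface epithelium list was at 0 in 21 of 24. The left gonad held more germ cell transcripts, with all 6 markers called higher at E5, E6.5 and E8 and 3 at E9.5. Their summed level was 263 to 356 CPM in left against 79.8 to 151 in right libraries at E5, and 469 to 599.6 against 322 to 358 at E9.5. The 8 markers of gonadal stroma, which include the matrix genes DCN, LUM and OGN, summed to 1128 to 1269 against 1624 to 1713 CPM at E8 and 1184 to 1295 against 1489 to 1675 at E9.5, with 4 of 8 called lower on the left at both stages. At E5 and E6.5, 2 and 1 of these 8 were called lower on the left. Transcripts of the neighbouring mesonephros, the embryonic kidney, were highest in E6.5 right 3, E9.5 right 2 and E8 right 1, and liver transcripts stood out in E8 right 3 and E6.5 left 3. The 10 liver markers summed to 2019 and 272 CPM in these, against at most 152 in the others. At E8, 10 of 12 adrenal and chromaffin markers were higher on the left (762 to 1921 CPM in left against 216 to 246 CPM in right libraries), and so were 8 of 12 neural and glial markers (778 to 1204 against 456 to 712 CPM). The part of these cells in the collagen results was not tested unless said, and in bulk tissue fewer cells of a type and less RNA per cell cannot be told apart.

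At each stage 4 to 9 of the 41 collagens were called between the sides. These were 12.2%, 9.76%, 14.6% and 22% at E5, E6.5, E8 and E9.5, against 2.94%, 3.24%, 14.3% and 13% of all genes. At E8 the share was thus near that of all genes. Members called at several stages kept their direction. COL12A1 and COL9A1, both FACITs, were higher in the left gonad at E5 and E6.5. The E5 call of COL12A1 was lost in 4 of 6 fits that left out 1 library. COL14A1, also a FACIT, was lower on the left at E8 and E9.5, and at E6.5 by a call lost in 5 of 6 fits that left out 1 library. COL26A1 was lower on the left at all 4 stages, with the call lost in 1 of 6 such fits at E5 and 2 of 6 at E6.5. COL7A1, of anchoring fibrils, was higher on the left at E8 and E9.5. Between E9.5 and E5, 24 of the 41 collagens were called in each gonad, against 34.2% (left) and 37.5% (right) of all genes. Type IX and type II collagen chains fell and COL14A1, COL4A5, COL4A6 and COL23A1 rose in both gonads.

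At E5, 5 of 41 collagens were called between left and right (2 higher and 3 lower on the left), against 2.94% of all genes tested (1.92% higher and 1.02% lower). At E6.5 there were 4 (2 and 2), against 3.24% of all genes (2.67% and 0.575%). At E8 there were 6 (3 and 3), against 14.3% (7.54% and 6.71%), and at E9.5 9 (2 and 7), against 13% (5.13% and 7.87%). These counts come to 12.2%, 9.76%, 14.6% and 22% of the members. At E8 the share was near that of all genes in this fit, but the split into higher and lower depended on it. The fit of the compared libraries alone called 16 at E8 (3 higher and 13 lower), against 21.2% of all genes, and the one with the mesonephros markers as a covariate called 8 (1 and 7), against 11.4%. Summed mesonephros markers did not overlap between left and right libraries at E8 (329 to 458 against 613 to 2140 CPM) or E9.5 (162 to 344 against 679 to 2696 CPM). Values with this covariate therefore cannot separate the side from the kidney transcripts at E8 and E9.5. More members had negative than positive log2 values at each stage, 25 of 41 at E5, 26 at E6.5 and 30 at E8 and at E9.5, while over all genes the negative ones were 8568, 8439, 9076 and 8654 of 16694. The median over the members was -0.23, -0.18, -0.42 and -0.21 over the 4 stages, against -0.006, -0.003, -0.038 and -0.015 over all genes. There was no overlap between the left and right libraries for 3 members higher and 5 lower on the left at E5 (18.5% of all genes had no overlap in either direction), 6 and 11 at E6.5 (15.6%), 8 and 16 at E8 (39.3%) and 4 and 9 at E9.5 (26.2%). The counts fell when some single libraries were left out, and so did the share of all genes called, given in brackets. At E5 the counts were 3 without left 1 (2.43%), left 3 (1.48%) or right 2 (2%). They were 2 without left 2 (1.39%) or right 3 (1.4%). At E6.5 they were 2 without left 2 (1.19%) or right 3 (1.16%), and at E8 3 without left 2 (8.7%) or right 2 (8%). At E9.5 they were 4 without left 1 (6.47%) and 5 without left 2 (7.76%) or left 3 (7.68%).

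Left and right libraries with the same number varied together at E5 and at E9.5. With the pair as a block the count at E5 was 9, against 4.88% of all genes in that fit. COL24A1 (-0.52, adjusted p = 0.0158), COL4A5 (0.39, adjusted p = 0.0378), COL4A1 (-0.70, adjusted p = 0.0347) and COL6A1 (-0.60, adjusted p = 0.00584) were added. At E9.5 the block gave 13, against 20% of all genes. COL3A1 (-0.41, adjusted p = 0.0127), COL4A1 (-0.54, adjusted p = 0.0426), COL9A1 (0.59, adjusted p = 0.0455) and COL8A1 (-0.55, adjusted p = 0.0346) were added there.

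**Figure D1:**
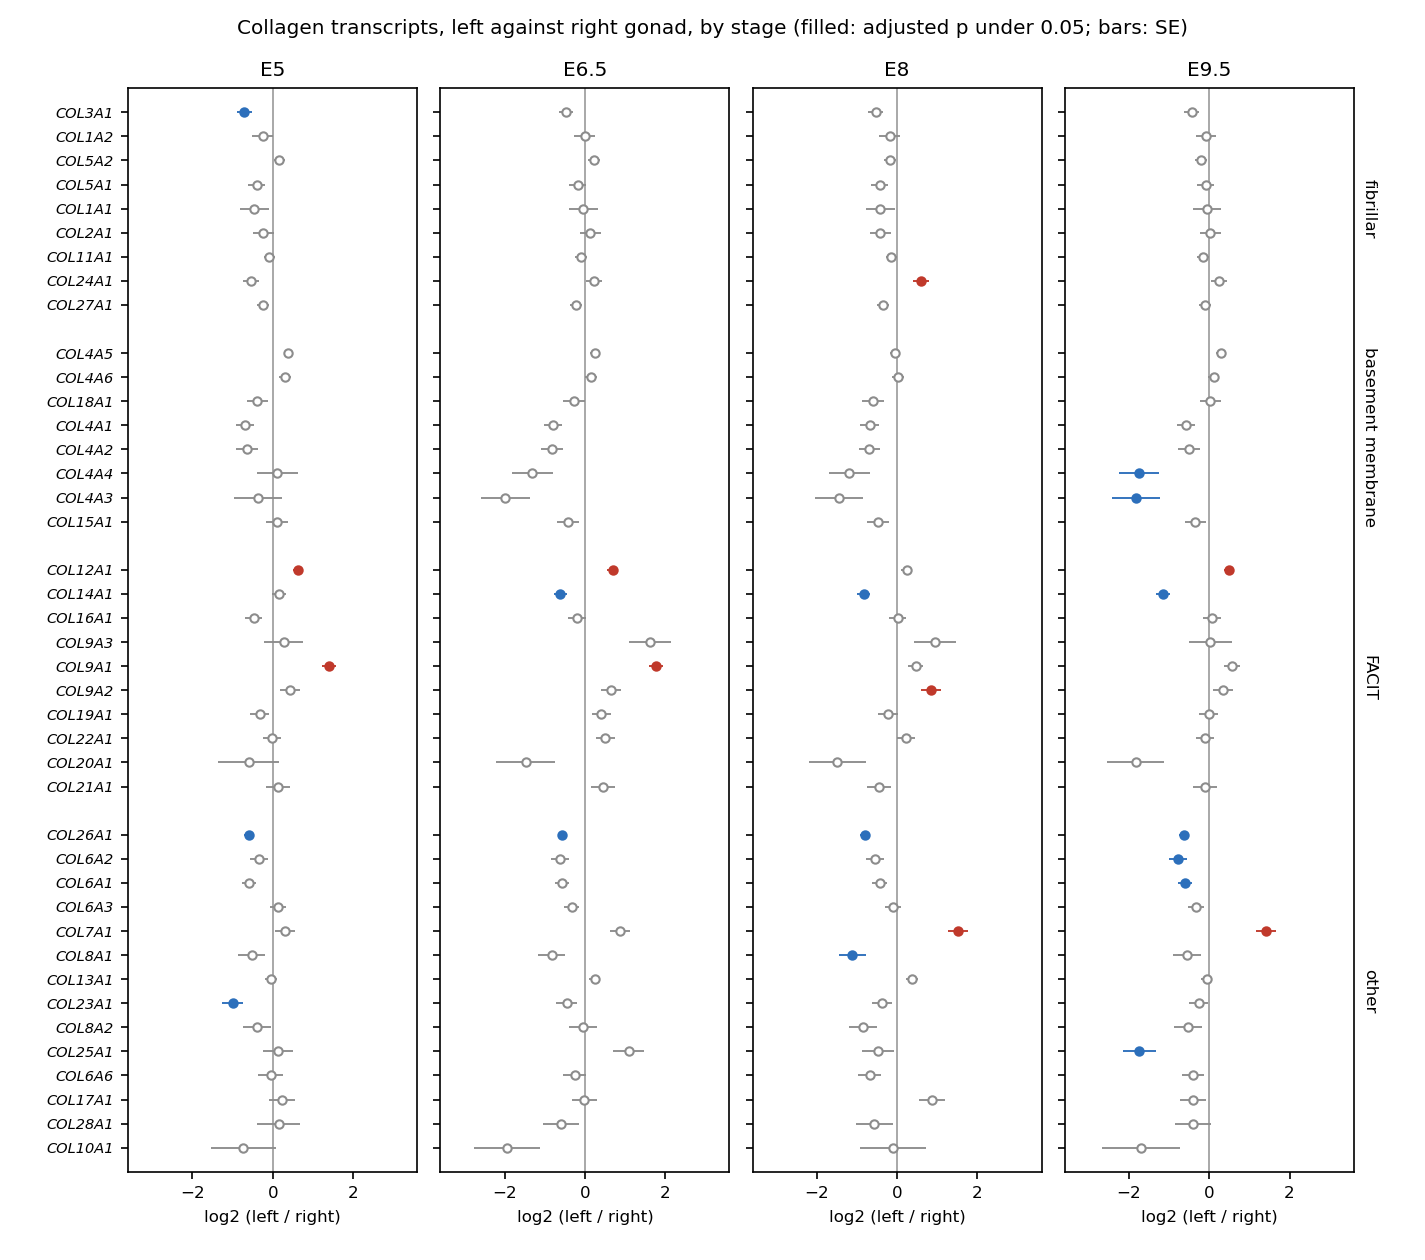
Log2 fold change of each of the 41 collagen genes between left and right gonads at E5, E6.5, E8 and E9.5, grouped by class, with the SE as bars; filled points have an adjusted p under 0.05, red higher and blue lower on the left. COL9A1 lies at 1.40 and 1.77 at E5 and E6.5, COL26A1 between -0.79 and -0.56 at all stages, and COL14A1 at -1.15 at E9.5.

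Between E9.5 and E5, 24 of 41 collagens were called in the left gonad (12 higher and 12 lower at E9.5), against 34.2% of all genes (18.2% higher and 16% lower). In the right gonad there were 24 as well (12 and 12), against 37.5% (21.5% and 16.1%). That is 58.5% of the members on each side. The counts ran from 21 to 23 in the left and from 21 to 27 in the right gonad when single libraries were left out. In these fits 27.9% to 30.8% (left) and 30.1% to 37.4% (right) of all genes were called. The median over the members was -0.07 (left) and -0.06 (right), against 0.005 and 0.035 over all genes. Values of the 2 stages did not overlap for 15 members higher and 14 lower at E9.5 in the left gonad (45.8% of all genes) and for 12 and 12 in the right (43.2%). Fibrillar collagens were called 3 higher and 4 lower of 9 in the left gonad and 2 and 4 in the right. FACITs were called 2 higher and 4 lower of 10 in the left and 2 and 5 in the right, basement membrane collagens 2 and 1 of 8 in the left and 4 and 1 in the right, and other collagens 5 and 3 of 14 in the left and 4 and 2 in the right.

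**Figure D2:**
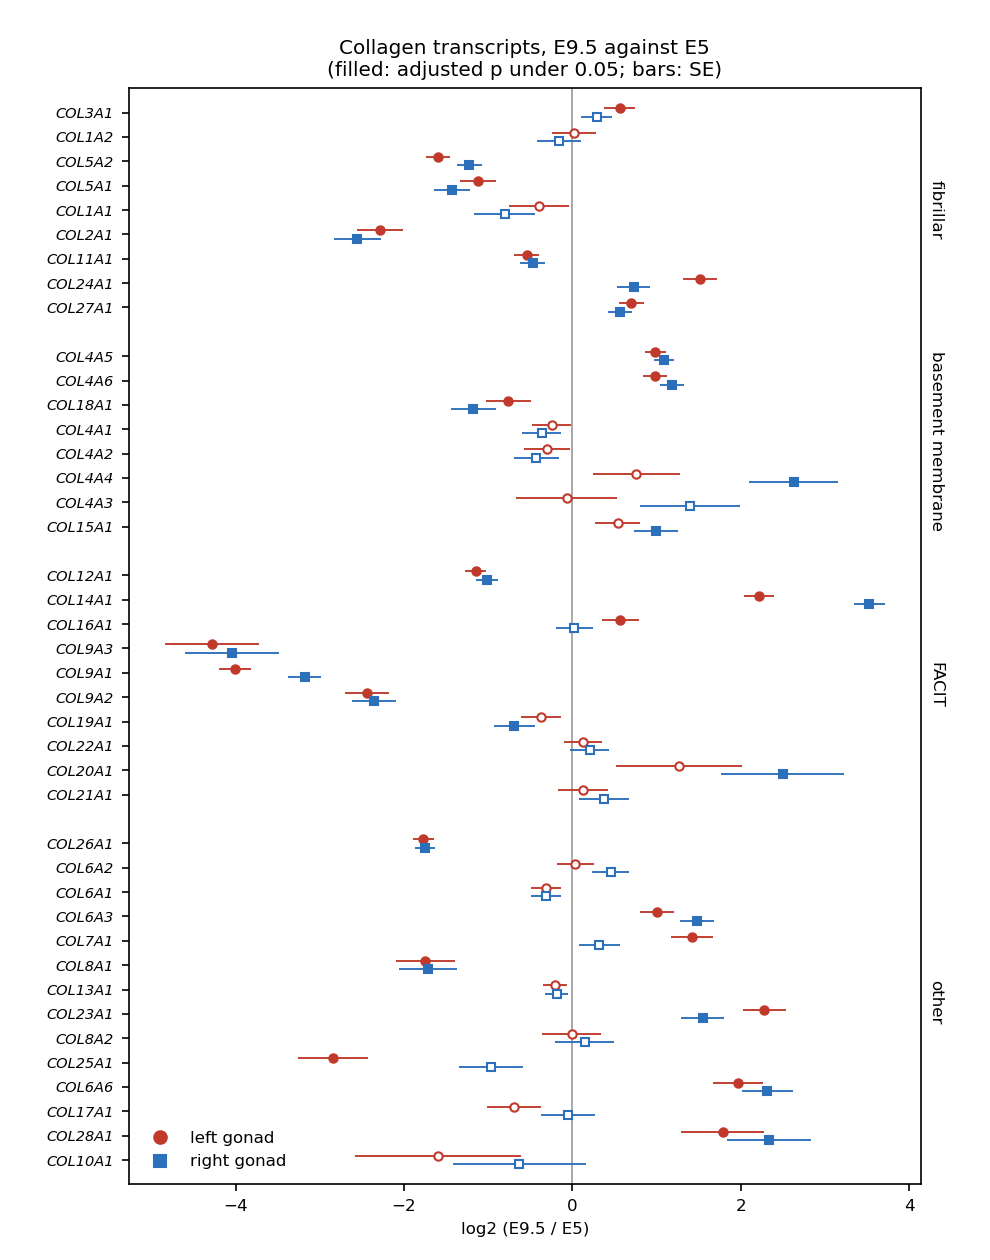
Log2 fold change of each of the 41 collagen genes between E9.5 and E5 in the left (red circles) and right (blue squares) gonad, grouped by class, with the SE as bars and filled symbols where the adjusted p is under 0.05. COL9A3 and COL9A1 lie farthest to the left, at -4.28 and -4.01 in the left gonad, and COL14A1 farthest to the right, at 3.53 in the right gonad.

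The reads of all fibrillar members together were 3898, 3591 and 5631 CPM in the left gonad at E5, against 5507, 4173 and 6974 CPM in the right. They were 3823, 3411 and 3641 CPM in the left at E9.5, against 4940.2, 3442 and 4462 CPM in the right. The left and right sums overlapped at both stages. At E8 they did not, with 3683, 3880 and 3765 CPM in left against 4405, 4962 and 5187 CPM in right libraries. The basement membrane sums at E8 did not overlap either, at 2674, 2847 and 2615 against 3145, 3361 and 3062 CPM. The basement membrane sum averaged 3591 ± 459 CPM at E9.5 and 2534 ± 314 CPM at E5 in the left gonad (SD, n = 3 each), and 3445 ± 390.1 and 2703 ± 384 CPM in the right. FACIT reads crossed over between the sides. They were 436, 466 and 495 CPM in left against 411, 264 and 356 CPM in right libraries at E5, and 303, 282 and 280.0 against 450.2, 351 and 358 CPM at E9.5, so that all left sums lay above all right ones at E5 and below them at E9.5. The other collagens summed to 931, 887 and 919.8 CPM in left against 1305, 1274 and 1229.6 CPM in right libraries at E8, and all left sums lay below all right ones at every stage. These sums weigh members by their reads and were not tested.

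**Figure D3:**
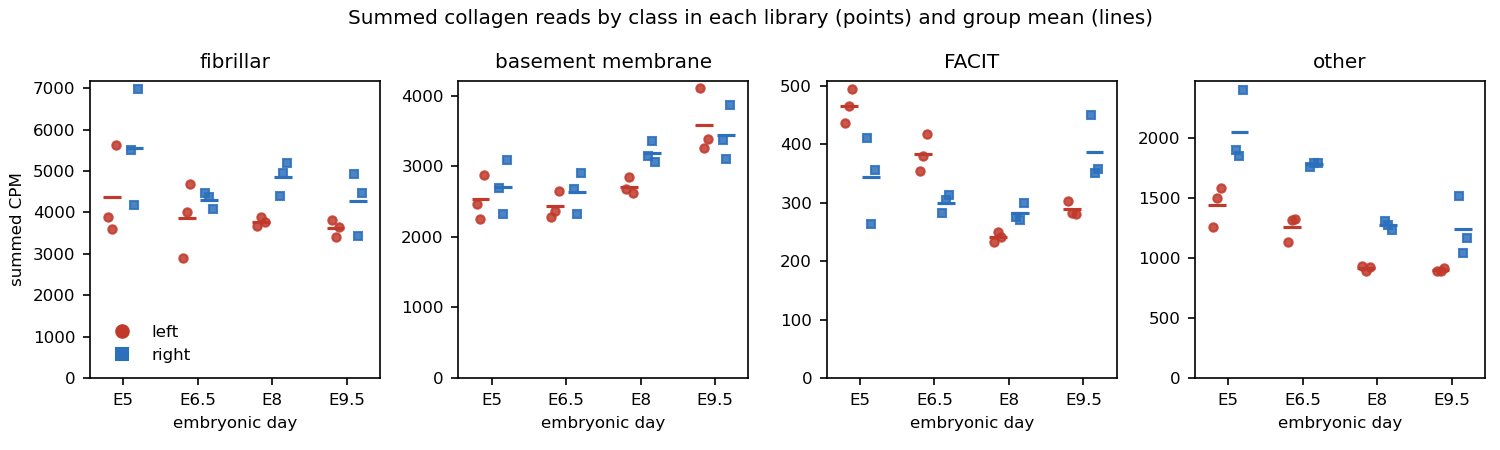
Summed CPM of the fibrillar, basement membrane, FACIT and other collagens in each library (points; left red circles, right blue squares) and the mean of each group of 3 (lines), against embryonic day. The FACIT sum is higher in left than in right libraries at E5 and lower at E9.5, and the other collagens are lower in every left group.

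Of the fibrillar collagens, COL3A1, the single chain of type III collagen in compliant tissues such as vessel walls, had 870.4, 921 and 1246 CPM in left libraries at E5, against 1504, 1377 and 2091 CPM in right ones. At that stage all left values lay below all right ones, and COL3A1 was 1.64-fold lower on the left (log2 -0.71 ± 0.18, adjusted p = 0.0368). The call did not hold with each library left out. The values were -0.61 (adjusted p = 0.198) without left 1 and -0.64 (adjusted p = 0.213) without left 2. They were -0.79 (adjusted p = 0.0647) without right 1 and -0.50 (adjusted p = 0.312) without right 3. Without the 2 libraries with liver transcripts the adjusted p was 0.0615. At E8 COL3A1 had 1505, 1472 and 1419 CPM in left libraries, against 2011, 2095 and 2241 CPM in right ones, again without overlap (log2 -0.53 ± 0.18, adjusted p = 0.0576). It was not called at E6.5 or E9.5 either, at log2 -0.47 ± 0.18 and -0.44 ± 0.18. With the mesonephros markers as a covariate it was called at all 3 (-0.71, adjusted p = 0.00291 at E6.5, -0.78, adjusted p = 0.000431 at E8, and -0.90, adjusted p = 0.000982 at E9.5). At E8 and E9.5 this covariate and the side cannot be told apart. At E8 COL3A1 was also called by DESeq2 (-0.52, adjusted p = 0.0437) and in the compared libraries alone (-0.51, adjusted p = 0.00353). At E5 the compared libraries alone did not call it (-0.71, adjusted p = 0.136). In the left gonad COL3A1 was higher at E9.5, at 1709, 1385 and 1385 CPM, than at E5 (log2 0.56 ± 0.18, adjusted p = 0.0218), while in the right gonad it had 2627, 1553 and 1896 CPM at E9.5 (log2 0.29 ± 0.18, adjusted p = 0.226). The left call had an adjusted p of 0.145 without E5 left 1, 0.123 without E5 left 2 and 0.143 without E9.5 left 1.

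COL1A2, which pairs with COL1A1 in type I collagen, the main fibril protein of connective tissue, was called in no comparison. It had 973, 863 and 994 CPM at E9.5 in the left gonad, against 727, 713 and 1354 CPM at E5, and 993, 855 and 1146 against 1123, 739 and 1472 CPM in the right gonad. Left replicate 3 at E5 was high, and in both gonads the E9.5 and E5 values overlapped (log2 0.02 ± 0.26 in the left and -0.16 ± 0.26 in the right). COL1A1 was not called either, with log2 values of -0.40 and -0.80 between E9.5 and E5 in the left and the right gonad. The count ratio of COL1A1 to COL1A2 spanned 2.26-fold over the 24 libraries.

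The 2 chains of type V collagen, which sets the width of type I fibrils, fell in both gonads. COL5A2 had 302, 283 and 260.0 CPM at E9.5 in the left gonad, against 766, 784 and 1001 CPM at E5 (log2 -1.59 ± 0.15, adjusted p = 3.84e-08). On the right it had 409, 282 and 286 against 793, 620.4 and 865 CPM (log2 -1.22 ± 0.14, adjusted p = 1.33e-06). In each gonad all E9.5 values lay below all E5 ones. Most of the fall lay before E8, with group means of 850.2, 506, 300.1 and 282 CPM in the left gonad at E5, E6.5, E8 and E9.5. COL5A1 had 249.6, 256 and 311 CPM at E9.5 in the left gonad, against 518, 464 and 792 CPM at E5, and 289, 238 and 341 against 757, 588 and 989 CPM in the right. Its values did not overlap between the stages either (log2 -1.12 ± 0.21, adjusted p = 0.000324 in the left; -1.43 ± 0.21, adjusted p = 2.56e-05 in the right). Neither chain was called between left and right at any stage, although COL5A1 was at E8 in the compared libraries alone (-0.41, adjusted p = 0.0133). COL5A2 lies next to COL3A1 on chromosome 7 in RefSeq's annotation of GRCg7b, and in the left gonad the neighbours moved in opposite directions between the stages.

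COL2A1, the chain of type II collagen of cartilage and notochord, fell by 2.29 on the log2 scale in the left gonad (SE 0.27, adjusted p = 1.46e-06) and by 2.55 in the right (SE 0.28, adjusted p = 4.35e-07). It had 72.6, 69.3 and 88.7 CPM at E9.5 in the left gonad, against 402, 259 and 466 CPM at E5. In the right gonad it had 69.1, 62.5 and 95.1 against 505, 298 and 527 CPM, and all E9.5 values lay below all E5 ones on both sides. Left and right never differed by the test, with log2 values between -0.42 and 0.13. SOX9, a regulator of cartilage genes that gonads also express, had 2.03, 2.25 and 2.74 CPM at E9.5 in the left gonad, against 17.2, 9.43 and 21.3 CPM at E5. Its right libraries had 0.444, 1.20 and 0.915 CPM at E9.5, against 26.9, 8.11 and 16.3 CPM at E5. ACAN reached at most 2.35 CPM in any library, MATN1 5.18, COMP 3.79 and MATN3 1.45, and CHAD was at 0 in 21 of 24, while HAPLN1 ran from 84.1 to 201 CPM. Over the 6 cartilage markers tested, 1 was higher and 1 lower at E9.5 than at E5 in the left gonad, and 1 and 2 in the right. Their part in the COL2A1 result was not tested. COL11A1, which joins type II collagen in fibrils, was lower at E9.5 by a smaller amount (log2 -0.54 ± 0.15, adjusted p = 0.00689 in the left; -0.47 ± 0.15, adjusted p = 0.0163 in the right). The right call had an adjusted p of 0.0852 without E5 right 3, 0.0592 without E9.5 right 2 and 0.0666 without E9.5 right 3, and of 0.143 with the kidney markers as a covariate.

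By contrast, COL24A1 and COL27A1, minor fibrillar collagens whose triple helix has interruptions, were higher at E9.5. COL24A1 had 113, 96.5 and 100.2 CPM at E9.5 in the left gonad, against 29.4, 43.6 and 35.3 CPM at E5. The right gonad had 118, 64.8 and 78.3 against 37.2, 58.9 and 61.5 CPM, with no overlap between the stages on either side (log2 1.52 ± 0.20, adjusted p = 6.62e-06 in the left; 0.73 ± 0.20, adjusted p = 0.00703 in the right). COL27A1 changed by 0.70 ± 0.15 in the left (adjusted p = 0.000839) and 0.57 ± 0.15 in the right (adjusted p = 0.00443). The adjusted p of COL24A1 in the right gonad was 0.0827 without E5 right 1 and 0.117 without E9.5 right 1, and that of COL27A1 0.0572 without E5 right 1. At E8, COL24A1 had 91.4, 101 and 84.8 CPM in left libraries, against 58.9, 67.5 and 56.7 CPM in right ones, and all left values lay above all right ones (log2 0.60 ± 0.20, adjusted p = 0.0484). Leaving out any of the 6 libraries ended this call. The adjusted p was 0.0956 without left 1, 0.153 without left 2, 0.0603 without left 3, 0.118 without right 1, 0.0715 without right 2 and 0.11 without right 3. The mesonephros markers as a covariate ended it too (0.39, adjusted p = 0.172). So did leaving out the 2 libraries with liver transcripts (adjusted p = 0.11) or the 3 with most kidney transcripts (0.0934). DESeq2 (0.61, adjusted p = 0.0226) and the compared libraries alone (0.62, adjusted p = 0.00515) called it. With the pairs as a block, the left-right difference of COL24A1 at E9.5 differed from that at E5 (0.82, adjusted p = 0.0107), which the test without the block did not call (adjusted p = 0.173).

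Among basement membrane collagens, COL4A5 and COL4A6, whose chains join in the type IV networks of epithelia and smooth muscle, rose together in both gonads. COL4A5 had 1939, 1494 and 1519 CPM at E9.5 in the left gonad, against 750.3, 829.8 and 918 CPM at E5, and 1408, 1104 and 1553 against 627, 601 and 681 CPM in the right. COL4A6 had 1347, 1043 and 1035 CPM at E9.5 in the left gonad, against 503, 563 and 667 CPM at E5, and 1195, 798 and 1189.9 against 458, 417 and 525 CPM in the right. For both genes and on both sides, all E9.5 values lay above all E5 ones. The rise was 0.99 ± 0.12 on the log2 scale for COL4A5 in the left (adjusted p = 2.21e-06) and 1.09 ± 0.12 in the right (adjusted p = 6.72e-07). For COL4A6 it was 0.98 ± 0.14 and 1.19 ± 0.15 in the left and the right gonad (adjusted p = 2.02e-05 and 2.23e-06). The 2 genes are neighbours on chromosome 4 in RefSeq's GRCg7b annotation, and their count ratio spanned only 1.40-fold over the 24 libraries. Neither was called between left and right, although COL4A5 had 750.3, 829.8 and 918 CPM in left libraries at E5, against 627, 601 and 681 CPM in right ones, without overlap (log2 0.39 ± 0.12, adjusted p = 0.0993).

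The chains found in nearly all basement membranes, COL4A1 and COL4A2, were not called by edgeR's test in the fit of all groups, although their values were lower in the left gonad at every stage. COL4A1 averaged 319 ± 53.8 CPM in left and 515 ± 58.9 CPM in right libraries at E5 (SD, n = 3 each), and 248 ± 18.1 and 398 ± 98.9 CPM at E8. All left values of COL4A1 lay below all right ones at each of the 4 stages. Its log2 values of -0.69, -0.80, -0.69 and -0.57 over the stages did not pass, with adjusted p-values of 0.133, 0.0626, 0.0506 and 0.105. Some other settings called both. DESeq2 called COL4A1 at E6.5 (adjusted p = 0.0133) and at E8 (0.0267) and COL4A2 at E6.5 (-0.85, adjusted p = 0.041). Without the 2 libraries with liver transcripts COL4A1 was -1.05, adjusted p = 0.0193 at E6.5 and -0.83, adjusted p = 0.0207 at E8. COL4A2 was then -1.18, adjusted p = 0.0237 at E6.5 and -0.85, adjusted p = 0.0375 at E8. In the compared libraries alone both were called at E8 (adjusted p = 0.0293 and 0.0391). With the mesonephros markers as a covariate neither was called at E6.5, E8 or E9.5. The same held without the 3 libraries with most kidney transcripts. At E5 these 2 settings called COL4A1 (-0.71, adjusted p = 0.0422, and -0.70, adjusted p = 0.0349). At E8 and E9.5 the covariate and the side cannot be told apart. COL4A2 had log2 values of -0.64, -0.83, -0.69 and -0.51. Between E9.5 and E5 COL4A1 stood at -0.24 ± 0.23 (left) and -0.37 ± 0.23 (right). COL4A1 and COL4A2 are neighbours on chromosome 1 in GRCg7b and had the steadiest count ratio of the 10 pairs of chains examined, between 1.71 and 2.16 in all 24 libraries, a span of 1.26-fold.

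COL4A3 and COL4A4, which with COL4A5 make up the basement membrane of the kidney glomerulus, were lower in the left than in the right gonad at E9.5. COL4A3 had 4.83, 6.10 and 5.58 CPM in left libraries at E9.5, against 12.7, 32.8 and 13.1 CPM in right ones, and COL4A4 had 14.7, 14.3 and 12.2 against 34.3, 67.8 and 36.7 CPM. For both genes all left values lay below all right ones, and both were called lower on the left (log2 -1.83 ± 0.60, adjusted p = 0.0498 for COL4A3, and -1.75 ± 0.51, adjusted p = 0.0287 for COL4A4). In the right gonad COL4A4 was also higher at E9.5 than at E5, where it had 5.88, 14.3 and 2.17 CPM (log2 2.63 ± 0.53, adjusted p = 0.000565), while COL4A3 was not called there (log2 1.40 ± 0.59, adjusted p = 0.0697). In the left gonad COL4A4 had 9.23, 9.43 and 5.66 CPM at E5 (log2 0.76 ± 0.51, adjusted p = 0.275).

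Kidney transcripts moved with both genes. The 15 mesonephros markers in the table summed to 223, 344 and 162 CPM in left libraries at E9.5, against 679, 2696 and 1266 CPM in right ones, and 5 of 15 were called lower on the left, with a median of -3.02; HNF4A was at 0 in 1 library and the others in none. The libraries with most COL4A3, E6.5 right 3 at 33.8 CPM and E9.5 right 2 at 32.8 CPM, were also those with most kidney transcripts, at 3300.0 and 2696 CPM, and with most COL4A4. With the mean of the kidney markers as a covariate, the E9.5 difference of COL4A3 was -0.16, adjusted p = 0.92. That of COL4A4 was -0.64, adjusted p = 0.54. As the marker sums did not overlap between the sides at E9.5, this covariate and the side cannot be told apart there. Leaving out E9.5 right 2 gave -1.19 for COL4A3 and -1.33 for COL4A4. The calls also ended without other single libraries, with an adjusted p of 0.136 without left 1, 0.105 without left 2, 0.113 without left 3 and 0.252 without right 2 for COL4A3. For COL4A4 it was 0.0744 without left 1, 0.0743 without left 2, 0.0865 without left 3 and 0.139 without right 2.

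**Figure D4:**
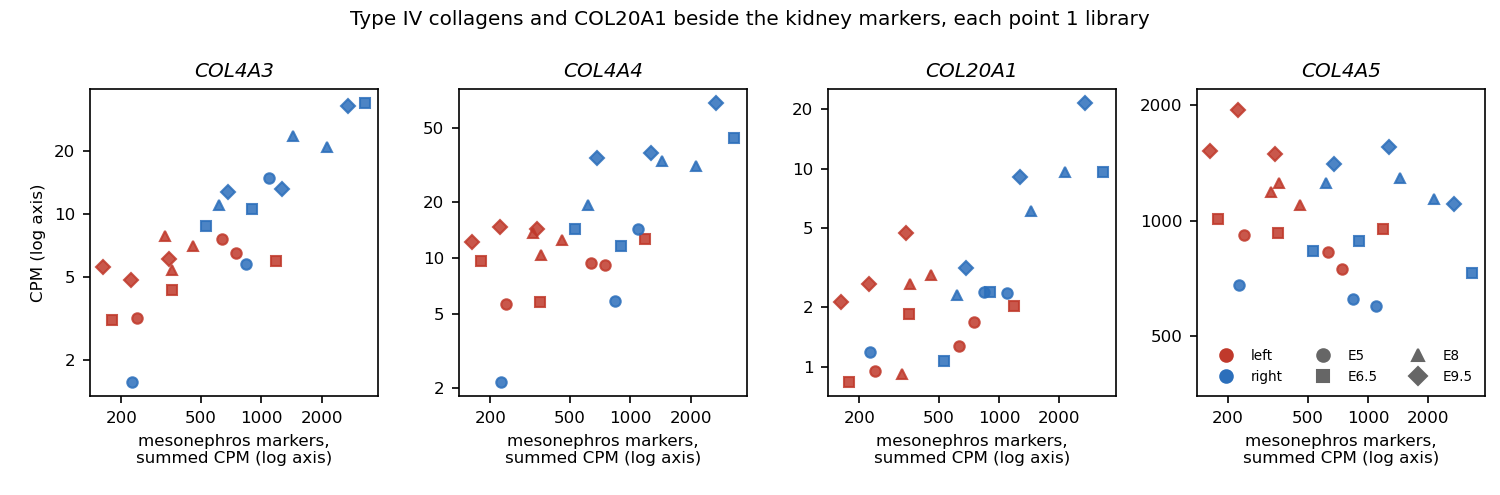
CPM of COL4A3, COL4A4, COL20A1 and COL4A5 (vertical, log axis) against the summed CPM of 15 mesonephros markers (horizontal, log axis), each point 1 library, left red and right blue, with the symbol giving the stage. The highest value of COL4A3 is in E6.5 right 3, at 3300.0 CPM of kidney markers, and those of COL4A4 and COL20A1 in E9.5 right 2, at 2696 CPM, while COL4A5 is higher in all E8 and E9.5 libraries than in all E5 and E6.5 ones.

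COL18A1, the source of endostatin in vessel and epithelial basement membranes, was lower at E9.5 on both sides, and COL15A1, its close relative, was higher in the right gonad. COL18A1 had 358, 318 and 415 CPM at E9.5 in the left gonad, against 634, 436 and 777 CPM at E5 (log2 -0.76 ± 0.27, adjusted p = 0.0342). On the right it had 239.5, 328 and 500.2 against 829.6, 593 and 987 CPM (log2 -1.17 ± 0.27, adjusted p = 0.00195). In both gonads all E9.5 values lay below all E5 ones, and in the left the adjusted p was 0.0725 without E5 left 1, 0.153 without E5 left 3, 0.0753 without E9.5 left 1 and 0.116 without E9.5 left 2. COL15A1 averaged 14.9 ± 4.55 CPM at E9.5 in the right gonad and 7.49 ± 0.861 CPM at E5 (SD, n = 3 each; log2 0.99 ± 0.26, adjusted p = 0.00569), and stood at log2 0.54 ± 0.26, adjusted p = 0.124 in the left. Without E9.5 right 1 the adjusted p in the right gonad was 0.0625. Its group means passed through a minimum, at 8.05, 3.09, 3.42 and 11.7 CPM in the left gonad over E5, E6.5, E8 and E9.5.

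COL12A1, the long FACIT of tendon, skin and other dense connective tissue, had 189, 247 and 239.7 CPM in left libraries at E5, against 137, 121 and 178 CPM in right ones. At E6.5 it had 219.9, 224 and 224 CPM in left libraries, against 138, 133 and 142 CPM in right ones. All left values lay above all right ones at both stages, and COL12A1 was 1.55-fold and 1.61-fold higher on the left (log2 0.63 ± 0.13, adjusted p = 0.00769 at E5, and 0.69 ± 0.13, adjusted p = 0.00415 at E6.5). At E8 it had 89.1, 90.1 and 82.3 CPM in left libraries, against 68.96, 73.5 and 79.7 CPM in right ones, which the test did not call (log2 0.24 ± 0.13, adjusted p = 0.236). At E9.5 it had 117, 97.04 and 90.6 CPM in left libraries, against 81.6, 65.7 and 68.2 CPM in right ones, again without overlap and called (log2 0.50 ± 0.13, adjusted p = 0.0168). The E6.5 call held with each library left out. At E5 the adjusted p was 0.0624 without left 2, 0.059 without left 3, 0.0589 without right 1 and 0.0644 without right 2, and at E9.5 0.0792 without left 1 and 0.0681 without right 2. In the compared libraries alone the adjusted p was 0.119 at E5 and 0.0729 at E9.5. With the kidney markers as a covariate the E9.5 value was 0.32, adjusted p = 0.246. On both sides COL12A1 was lower at E9.5 than at E5 (log2 -1.15 ± 0.13, adjusted p = 6.62e-07 in the left; -1.02 ± 0.13, adjusted p = 3.69e-06 in the right). In the left gonad the drop lay between E6.5 and E8, where no values overlapped.

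COL14A1, a FACIT that binds the proteoglycan decorin on the fibril surface, ran the other way in time and between the sides. It rose in both gonads, to 104, 101 and 98.9 CPM at E9.5 in the left gonad, against 24.5, 21.01 and 19.95 CPM at E5. On the right it rose to 270.2, 201 and 203 against 24.4, 15.7 and 18.5 CPM. These were 4.64-fold and 11.5-fold rises (log2 2.21 ± 0.18, adjusted p = 5.74e-09 in the left; 3.53 ± 0.18, adjusted p = 1.87e-11 in the right). At E5 the sides overlapped (log2 0.16 ± 0.17, adjusted p = 0.875). At E6.5 COL14A1 had 43.5, 57.2 and 72.3 CPM in left libraries, against 75.7, 96.3 and 92.4 CPM in right ones, and at E8 69.6, 72.7 and 84.1 against 132, 125 and 147 CPM. From E6.5 on, all left values lay below all right ones, and the left gonad was lower by log2 -0.61 ± 0.17, adjusted p = 0.0497 at E6.5, -0.84 ± 0.17, adjusted p = 0.0025 at E8 and -1.15 ± 0.17, adjusted p = 0.00021 at E9.5.

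COL14A1 was also the 1 collagen of 41 whose left-right difference at E9.5 was called as different from that at E5 (log2 -1.31 ± 0.24, adjusted p = 0.00459), against 2.2% of all genes in either direction and 1.34% in its own. The calls at E8, at E9.5 and of this change held with each library left out. The E6.5 call did not, with an adjusted p of 0.147 without left 1, 0.179 without left 2, 0.0635 without right 1, 0.149 without right 2 and 0.177 without right 3, and it was lost without the 3 libraries with most kidney transcripts (0.221). It was also lost in the compared libraries alone (-0.61, adjusted p = 0.318) and with the kidney markers as a covariate (-0.65, adjusted p = 0.0653). With the pair as a block, COL24A1, COL7A1 (1.20, adjusted p = 0.0486) and COL25A1 (-1.79, adjusted p = 0.0378) joined COL14A1, for 4 in all, against 4.15% of all genes. The count was 2 without E5 left 3 (1.87% of all genes), E5 right 2 (1.65%) or E9.5 right 1 (2.44%), and 5 without E9.5 right 3 (2.4%). Stroma markers, too, were lower on the left, 4 of 8 at E8 and at E9.5, but also 2 of 8 at E5 and 1 of 8 at E6.5. Their part in the COL14A1 result was not tested.

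The ratio of COL12A1 to COL14A1 counts thus ran through 39.8-fold over the 24 libraries, the widest span of the 10 pairs examined. Its median fell along the stages, at 11.7, 3.91, 1.24 and 0.961 in the left gonad over E5, E6.5, E8 and E9.5 and at 7.67, 1.54, 0.542 and 0.326 in the right. The ratio was higher in the left median at each stage, and no left library overlapped a right one from E6.5 on.

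The 3 chains of type IX collagen, which decorates type II fibrils in cartilage and the eye, fell together with time but differed between the sides unequally. COL9A1 had 47.9, 68.5 and 59.5 CPM in left libraries at E5, against 24.4, 20.8 and 21.5 CPM in right ones, and 30.1, 28.1 and 23.7 against 8.47, 8.57 and 6.99 CPM at E6.5. All left values lay above all right ones, by 2.64-fold at E5 and 3.40-fold at E6.5 (log2 1.40 ± 0.17, adjusted p = 5.34e-05, and 1.77 ± 0.17, adjusted p = 4.67e-06). At E8 it had 4.99, 4.65 and 6.02 against 2.97, 3.92 and 4.46 CPM and at E9.5 3.34, 3.74 and 3.82 against 2.60, 2.87 and 1.83 CPM, still without overlap but not called (log2 0.46 ± 0.18, adjusted p = 0.0954, and 0.57 ± 0.19, adjusted p = 0.0538). Some other settings called it. At E9.5 it was 0.59, adjusted p = 0.0461 under median-ratio scaling, 0.59, adjusted p = 0.0455 with the pairs as a block, 0.59, adjusted p = 0.0399 without the 2 libraries with liver transcripts, and 0.73, adjusted p = 0.0336 without the 3 with most kidney transcripts. At E8 it was 0.63, adjusted p = 0.0491 without the libraries with liver transcripts. DESeq2, the fit with no filter, the compared libraries alone and the mesonephros covariate called COL9A1 at neither E8 nor E9.5. The size of its left-right difference depended on the stage (F test, adjusted p = 0.0104), and this call and those at E5 and E6.5 held with each library left out.

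Germ cell markers were also higher on the left at E5 and E6.5, 6 of 6 at both stages. Of 7 surface epithelium markers only 1 was called higher at each of these stages, with medians of 0.35 and 0.18. The summed levels at E6.5 were 294 to 443 CPM in left against 92.97 to 199 CPM in right libraries for germ cells, and 2273 to 2442 against 1803 to 2039.6 CPM for the surface epithelium. Within the latter sum, KRT7 had 727 to 757 CPM in left against 337 to 437 CPM in right libraries. At E8 the germ cell markers were also higher on the left. The part of these markers in the COL9A1 result was not tested. COL9A1 lies beside COL19A1, another FACIT, on chromosome 3 in GRCg7b. COL19A1 had log2 values of -0.33 and 0.41 at E5 and E6.5 and was not called between the sides.

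COL9A2 had 11.6, 9.99 and 8.62 CPM in left libraries at E8, against 6.44, 4.82 and 5.53 CPM in right ones, and all left values lay above all right ones (log2 0.85 ± 0.26, adjusted p = 0.0312). The adjusted p was 0.117 without left 1, 0.0714 without left 2, 0.114 without right 2 and 0.0687 without right 3, right 3 being a library with liver transcripts. COL9A3 was called at no stage between the sides, at log2 0.27 ± 0.48 at E5 and 1.61 ± 0.53 at E6.5, where left 3 had 24.96 CPM and the other left libraries 5.01 and 8.78 CPM. Between the stages all 3 chains fell without overlap in both gonads. COL9A3 had 1.79, 3.68 and 5.37 CPM at E9.5 in the left gonad, against 80.2, 57.3 and 74.9 CPM at E5 (log2 -4.28 ± 0.56, adjusted p = 4.85e-06). In the right gonad it had 3.99, 3.97 and 2.68 against 103, 31.9 and 41.1 CPM (log2 -4.04 ± 0.56, adjusted p = 1.01e-05).

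COL9A1 was 16.1-fold lower at E9.5 in the left gonad (log2 -4.01 ± 0.19, adjusted p = 6.24e-12) and 9.07-fold lower in the right (-3.18 ± 0.19, adjusted p = 1.34e-10). COL9A2 had 5.54, 6.81 and 6.14 CPM at E9.5 in the left gonad, against 34.6, 28.2 and 37.8 CPM at E5 (log2 -2.44 ± 0.26, adjusted p = 3.21e-07). The right gonad had 4.50, 4.65 and 5.42 against 38.9, 15.1 and 20.9 CPM (log2 -2.36 ± 0.26, adjusted p = 6.14e-07). The 3 chains did not keep a fixed proportion. The count ratio of COL9A1 to COL9A2 spanned 7.37-fold over the 24 libraries and that of COL9A3 to COL9A2 9.93-fold. At E6.5 the ratio of COL9A1 to COL9A2 had a median of 2.09 in left and 0.972 in right libraries. The part of the cartilage markers given beside COL2A1 in the type IX result was not tested.

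COL20A1, a FACIT known from chick embryos, was highest in the 3 libraries with most kidney transcripts, E9.5 right 2, E8 right 1 and E6.5 right 3. On the right it had 3.17, 21.5 and 9.08 CPM at E9.5, against 2.39, 2.37 and 1.18 CPM at E5 (log2 2.50 ± 0.73, adjusted p = 0.0105), and all E9.5 values lay above all E5 ones. In the left gonad it had 2.62, 4.73 and 2.12 CPM at E9.5, against 1.69, 1.27 and 0.953 CPM at E5 (log2 1.27 ± 0.75, adjusted p = 0.209). Without E9.5 right 2 the value in the right gonad was 1.56 with an adjusted p of 0.112; without E5 right 3 the adjusted p was 0.0538. With the kidney markers as a covariate it was 0.66, adjusted p = 0.348. The 15 kidney markers summed to 679 to 2696 CPM at E9.5 in the right gonad, against 226 to 1094 CPM at E5, and 6 of 15 were called higher and 1 lower there. Of the remaining FACITs, COL16A1 was higher at E9.5 in the left gonad (log2 0.57 ± 0.22, adjusted p = 0.0475), COL19A1 was lower at E9.5 in the right (-0.69 ± 0.24, adjusted p = 0.0285), and COL21A1 and COL22A1 were called in no comparison, at 2.20 to 3.15 and 4.54 to 7.34 CPM over the group means. The COL16A1 call ended under median-ratio scaling (adjusted p = 0.0547) and had an adjusted p of 0.101 without E5 left 1, 0.276 without E5 left 2, 0.106 without E9.5 left 1, 0.09 without E9.5 left 2 and 0.163 without E9.5 left 3. For COL19A1 it was 0.102 without E5 right 1 and 0.0748 without E9.5 right 2.

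**Figure D5:**
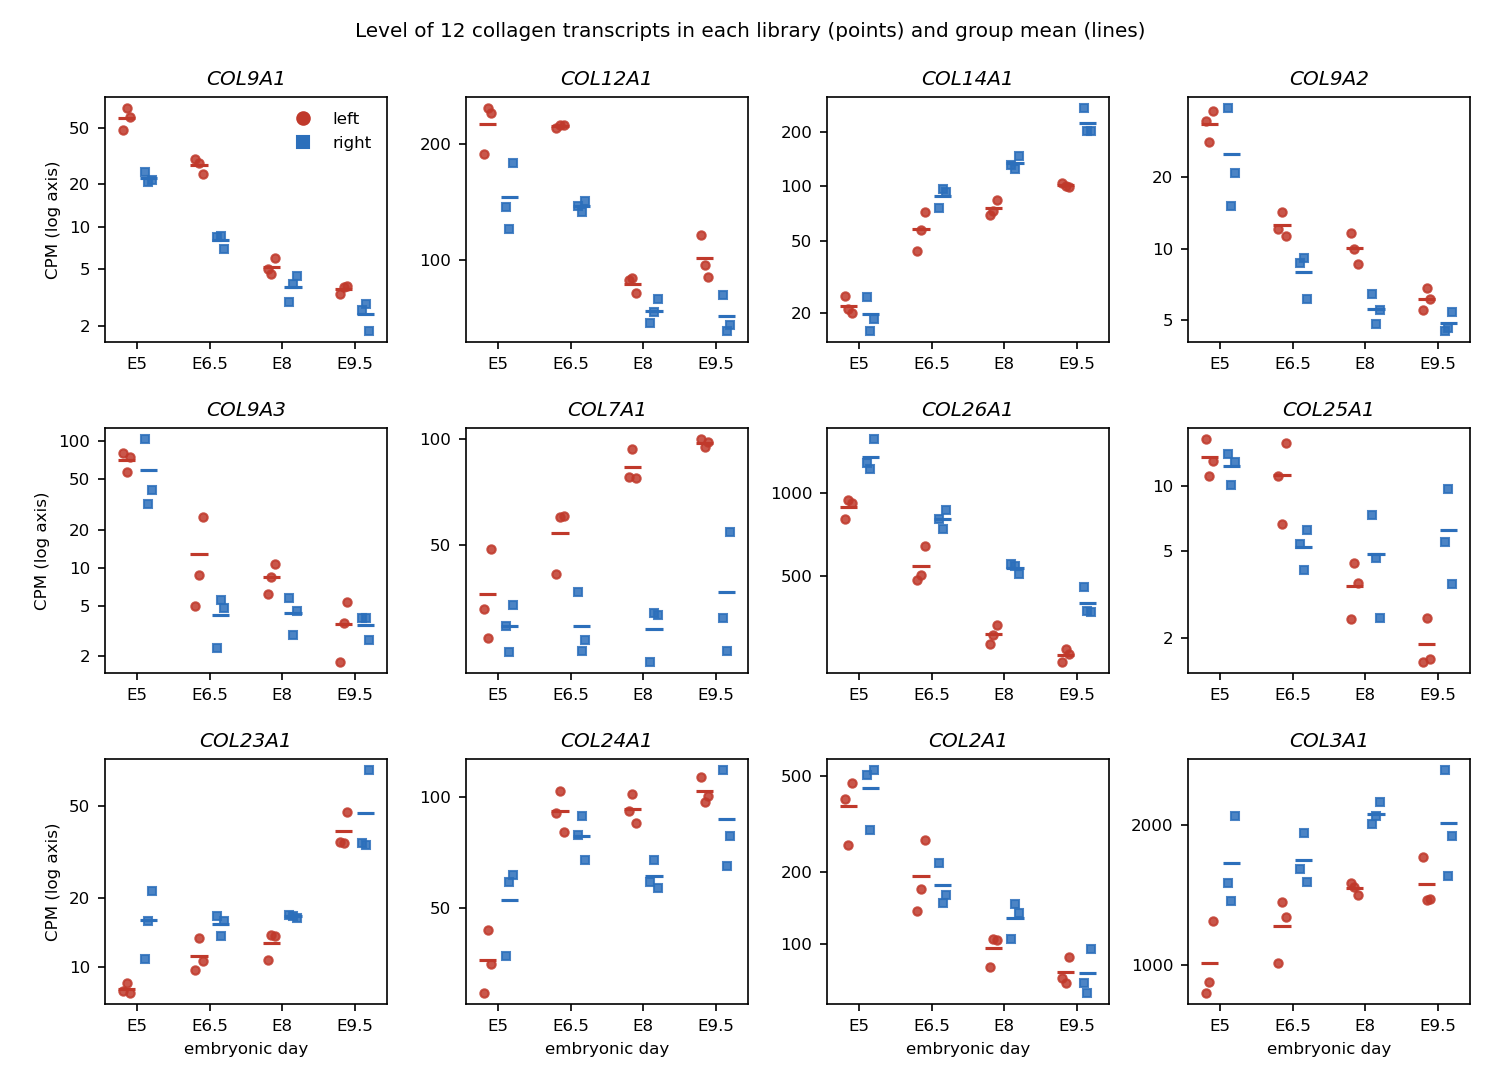
CPM (log axis) of 12 collagen genes in each library (points; left red circles, right blue squares) and the mean of each group of 3 (lines), against embryonic day. COL9A1, COL12A1 and COL26A1 separate the sides at all 4 stages, and COL14A1 and COL7A1 from E6.5 on.

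Of the other collagens, COL26A1 was the member called between the sides at every stage. Type XXVI collagen was found in mouse as a collagen of testis and ovary. It had 800.2, 944 and 916 CPM in left libraries at E5, against 1275, 1211 and 1555 CPM in right ones, and 485, 505 and 642 against 806, 738 and 868 CPM at E6.5. At E8 it had 285, 307 and 333 CPM in left libraries, against 551, 546 and 508 CPM in right ones, and at E9.5 245, 274 and 262 against 455, 375 and 373 CPM. At each stage all left values lay below all right ones. The left gonad was lower by log2 -0.60 ± 0.12, adjusted p = 0.00541 at E5, -0.56 ± 0.12, adjusted p = 0.00939 at E6.5, -0.79 ± 0.12, adjusted p = 0.000181 at E8 and -0.62 ± 0.12, adjusted p = 0.00204 at E9.5. The calls at E8 and E9.5 held with each library left out, while that at E5 had an adjusted p of 0.0525 without right 3 and that at E6.5 of 0.0808 without left 2 and 0.065 without right 3. In the compared libraries alone the adjusted p was 0.0562 at E5 and 0.168 at E6.5, and without the 3 libraries with most kidney transcripts it was 0.103 at E6.5. COL26A1 was also lower at E9.5 than at E5 on both sides (log2 -1.77 ± 0.12, adjusted p = 6.48e-10 in the left; -1.75 ± 0.12, adjusted p = 7.72e-10 in the right). The change of its left-right difference between these stages was -0.02 ± 0.16 (adjusted p = 0.974).

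COL7A1, the chain of the anchoring fibrils that tie epithelial basement membranes to stroma, was higher on the left at E8 and E9.5. It had 33.05, 27.3 and 48.6 CPM in left libraries at E5, against 29.5, 24.9 and 33.8 CPM in right ones, which overlapped (log2 0.30 ± 0.25, adjusted p = 0.762). At E6.5 it had 41.3, 60.2 and 60.4 CPM in left libraries, against 36.8, 25.1 and 26.8 CPM in right ones (log2 0.87 ± 0.25, adjusted p = 0.0602). At E8 it had 78.1, 93.5 and 77.3 against 23.3, 32.04 and 31.6 CPM and at E9.5 99.6, 94.6 and 97.7 against 31.1, 25.01 and 54.3 CPM. From E6.5 on, all left values lay above all right ones, and the left gonad was 2.86-fold higher at E8 (log2 1.52 ± 0.25, adjusted p = 0.000504) and 2.65-fold higher at E9.5 (1.40 ± 0.25, adjusted p = 0.00117). Both calls held with each library left out. The adrenal and neural markers were higher on the left at E8 too, and their part in the COL7A1 result was not tested. In the left gonad COL7A1 was higher at E9.5 than at E5 (log2 1.42 ± 0.25, adjusted p = 0.000133). In the right it was not called (0.32 ± 0.25, adjusted p = 0.325). The test of the difference between the sides gave 1.10 ± 0.35, adjusted p = 0.115, or 1.20, adjusted p = 0.0486 with the pairs as a block and 1.13, adjusted p = 0.0382 by DESeq2. A separate row of the table, COL7A1L, fell on both sides, and reads shared between the 2 rows were not tested.

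Of the type VI chains, which form beaded microfilaments around cells, COL6A1 and COL6A2 were lower on the left at E9.5 and COL6A3 and COL6A6 rose with time. COL6A1 averaged 103 ± 2.68 CPM in left and 157 ± 44.4 CPM in right libraries at E9.5 (SD, n = 3 each; log2 -0.60 ± 0.18, adjusted p = 0.0314), and COL6A2 198 ± 6.31 and 338 ± 129.6 CPM (-0.77 ± 0.22, adjusted p = 0.0273). All left values lay below all right ones for both, E9.5 right 1 was the highest library, and without it the values were -0.32 and -0.39. The adjusted p was 0.0972 without left 1, 0.107 without left 2, 0.109 without left 3 and 0.252 without right 1 for COL6A1. For COL6A2 it was 0.0849 without left 1, 0.0971 without left 2, 0.0737 without left 3 and 0.223 without right 1. In the compared libraries alone neither was called at E9.5 (adjusted p = 0.115 for COL6A1 and 0.107 for COL6A2). Without the 2 libraries with liver transcripts the adjusted p of COL6A1 was 0.0534. With the mesonephros markers as a covariate the E9.5 values were -0.96, adjusted p = 0.00163 for COL6A1, and -1.18, adjusted p = 0.00291 for COL6A2. COL6A1 was then also called lower on the left at E5 (-0.60, adjusted p = 0.0134), E6.5 (-0.79, adjusted p = 0.0052) and E8 (-0.64, adjusted p = 0.00738), and COL6A2 at E6.5 (-0.83, adjusted p = 0.0224) and E8 (-0.79, adjusted p = 0.0109). At E8 and E9.5 this covariate and the side cannot be told apart. COL6A3 had 128, 125 and 139 CPM at E9.5 in the left gonad, against 51.6, 58.3 and 85.5 CPM at E5 (log2 1.01 ± 0.20, adjusted p = 0.000472). In the right gonad it had 190.5, 135 and 169 against 52.6, 48.3 and 76.6 CPM (log2 1.48 ± 0.20, adjusted p = 7.98e-06). COL6A6 had 6.91, 6.76 and 7.07 CPM at E9.5 in the left gonad, against 1.93, 2.15 and 1.21 CPM at E5, and 11.98, 8.56 and 6.93 against 1.68, 2.43 and 1.38 CPM in the right (log2 1.97 ± 0.30, adjusted p = 3.24e-05, and 2.31 ± 0.30, adjusted p = 5.05e-06). For both genes all E9.5 values lay above all E5 ones. COL6A1 and COL6A2 were not called between E9.5 and E5 in either gonad. The ratio of COL6A1 to COL6A2 counts spanned 3.27-fold although the 2 genes are neighbours on chromosome 7 in GRCg7b.

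Collagens that span the cell membrane moved in both directions. COL23A1 rose, to 35.04, 34.7 and 47.1 CPM at E9.5 in the left gonad, against 7.84, 8.48 and 7.69 CPM at E5. On the right it rose to 34.5, 34.1 and 71.8 against 10.9, 15.8 and 21.4 CPM. In both gonads all E9.5 values lay above all E5 ones (log2 2.28 ± 0.26, adjusted p = 8.07e-07 in the left; 1.55 ± 0.25, adjusted p = 6.38e-05 in the right). At E5 all its left values lay below all right ones (log2 -1.0 ± 0.26, adjusted p = 0.0356), a call with an adjusted p of 0.108 without left 1, 0.111 without left 2, 0.129 without left 3, 0.0816 without right 2 and 0.256 without right 3, and of 0.0535 without the 2 libraries with liver transcripts. COL25A1, whose shed part is known from amyloid plaques in the human brain, fell in the left gonad, to 1.55, 2.47 and 1.60 CPM at E9.5, against 16.3, 11.1 and 13.03 CPM at E5 (log2 -2.84 ± 0.41, adjusted p = 1.73e-05). The right gonad had 5.51, 9.71 and 3.53 CPM at E9.5, against 13.97, 10.1 and 12.9 CPM at E5 (log2 -0.97 ± 0.38, adjusted p = 0.0501). COL13A1 and COL17A1, of cell junctions and hemidesmosomes, were called in no comparison.

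At E9.5 COL25A1 was lower on the left, without overlap (log2 -1.74 ± 0.41, adjusted p = 0.00908), while at E6.5 it had 11.1, 6.69 and 15.8 CPM in left libraries, against 5.40, 4.09 and 6.26 CPM in right ones (log2 1.09 ± 0.38, adjusted p = 0.153). COL25A1, too, had a left-right difference that depended on the stage (F test, adjusted p = 0.0367). At E9.5 it was highest in right 2, the library rich in kidney transcripts, without which the E9.5 value was -1.23 with an adjusted p of 0.0777. With the kidney markers as a covariate the E9.5 value was -1.01, adjusted p = 0.199, and the E6.5 value was 1.43, adjusted p = 0.0313. The F test for COL25A1 missed the threshold in 17 of the fits that left out 1 library, with adjusted p-values from 0.0522 to 0.097. It held without E6.5 left 2, E6.5 right 3, E8 left 1, E8 left 2, E8 right 1, E8 right 3 or E9.5 right 3.

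In the F test over the 4 stages, COL9A1, COL14A1 (adjusted p = 0.0194) and COL25A1 were called, 3 of 41 against 2.05% of all genes. For COL14A1 this F test gave an adjusted p of 0.0807 without E5 left 1, 0.0534 without E5 left 2, 0.0506 without E5 left 3, 0.087 without E5 right 2, 0.0776 without E5 right 3 and 0.0609 without E9.5 left 2. Without any of these 6 libraries the count of collagens called was 1, COL9A1, against 1.15% to 1.39% of all genes. It was 1 without the 3 libraries with most kidney transcripts (1.51% of all genes). By DESeq2 it was 5, against 3.63% of all genes with any reads, a wider set than the filtered genes.

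COL8A1, a chain of the hexagonal network under endothelia, was lower at E9.5 in both gonads. It had 18, 22.4 and 14.5 CPM at E9.5 in the left gonad, against 41.01, 75.7 and 67.2 CPM at E5 (log2 -1.74 ± 0.35, adjusted p = 0.000551). On the right it had 31.4, 29.2 and 20.1 against 43.9, 96.2 and 124 CPM (log2 -1.71 ± 0.35, adjusted p = 0.000588), and all E9.5 values lay below all E5 ones. At E8 it had 29.04, 12.7 and 18.8 CPM in left libraries, against 58.2, 35.1 and 37.7 CPM in right ones (log2 -1.11 ± 0.35, adjusted p = 0.0364). This call had an adjusted p of 0.158 without left 2, 0.115 without left 3, 0.189 without right 1, 0.052 without right 2 and 0.0521 without right 3. Its partner COL8A2 was not called, but was lower on the left at E8 in the compared libraries alone (-0.83, adjusted p = 0.00787) and with the mesonephros markers as a covariate (-1.11, adjusted p = 0.0483). Over the 24 libraries the ratio of COL8A1 to COL8A2 counts spanned 9.39-fold. COL28A1, a collagen of peripheral nerve sheaths in mouse, rose in both gonads, with 3.22, 2.97 and 2.48 CPM at E9.5 in the left gonad, against 0.724, 0.949 and 0.826 CPM at E5 (log2 1.78 ± 0.49, adjusted p = 0.00771). In the right gonad it had 3.11, 5.90 and 2.35 against 0.776, 1.07 and 0.394 CPM (2.33 ± 0.50, adjusted p = 0.000967). Of the 12 neural and glial markers tested, 3 were higher and 1 lower at E9.5 in the left gonad and 1 and 1 in the right, with sums of 298 to 672 CPM at E9.5, against 451 to 492 CPM at E5, in the left. Their part in the COL28A1 result was not tested. COL10A1, of growth plate cartilage, had group means of 0.0883 to 0.696 CPM, and was not called.

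The other genes of collagen handling were taken from 5 lists. Of 19 genes of synthesis, folding and secretion tested, 2 were higher and 3 lower at E9.5 than at E5 in the left gonad and 3 and 2 in the right, with medians of 0.04 and 0.06. Over all genes tested 34.2% (left) and 37.5% (right) were called. P3H2, a prolyl 3-hydroxylase active on type IV chains, was higher in both. It averaged 32.5 ± 1.71 against 10.3 ± 1.11 CPM in the left gonad (SD, n = 3 each; log2 1.65 ± 0.18, adjusted p = 4.36e-07) and 30.9 ± 7.27 against 9.35 ± 2.21 CPM in the right (1.72 ± 0.18, adjusted p = 3.02e-07). P4HA2, a subunit of the prolyl 4-hydroxylase, was lower in both (log2 -0.58 ± 0.13, adjusted p = 0.0018 in the left, and -0.63 ± 0.13, adjusted p = 0.000897 in the right). Between the sides 0, 1, 3 and 1 were called over the 4 stages, against 2.94%, 3.24%, 14.3% and 13% of all genes. At E8 P3H4 was lower on the left (log2 -0.80 ± 0.17, adjusted p = 0.00321), as were FKBP14 and P3H3. Of 13 genes of procollagen cleavage and crosslinking, 5 were higher and 4 lower at E9.5 in the left gonad and 6 and 4 in the right, against the same 34.2% and 37.5%. ADAMTS2, which removes procollagen N-propeptides, rose in both. It averaged 33.6 ± 3.31 against 8.36 ± 0.578 CPM in the left gonad (log2 2.01 ± 0.28, adjusted p = 1.16e-05) and 44.8 ± 5.08 against 15.1 ± 6.21 CPM in the right (1.57 ± 0.27, adjusted p = 0.00014). PCOLCE2, an enhancer of C-propeptide removal, fell in both (log2 -2.33 ± 0.30, adjusted p = 4.55e-06 in the left, and -2.20 ± 0.30, adjusted p = 8.19e-06 in the right). LOXL4, a lysyl oxidase relative, was lower on the left at E8 (log2 -1.82 ± 0.43, adjusted p = 0.00772) and E9.5 (-2.09 ± 0.43, adjusted p = 0.00385), with all 4 genes called at E8 lower on the left, against 14.3% of all genes called in either direction. At E9.5, 1 gene of this list was higher and 4 were lower on the left, against 13% of all genes. At E5 and E6.5, 0 and 1 were called, against 2.94% and 3.24%.

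Of 11 fibril-binding proteoglycans and glycoproteins tested, 6 were higher and 3 lower at E9.5 in the left gonad and 4 and 2 in the right, with medians of 0.64 and 0.21, against 34.2% and 37.5% of all genes called. OGN, a small leucine-rich proteoglycan, rose in both gonads. It averaged 121 ± 23.3 against 7.80 ± 3.36 CPM in the left (log2 3.95 ± 0.27, adjusted p = 6.30e-10) and 118 ± 25.4 against 19.2 ± 4.40 CPM in the right (2.61 ± 0.25, adjusted p = 7.31e-08). At E5 it was lower on the left (log2 -1.30 ± 0.25, adjusted p = 0.00599), and its left-right difference changed between E9.5 and E5 (log2 1.33 ± 0.34, adjusted p = 0.0424). FN1, fibronectin, fell in both (log2 -1.52 ± 0.30, adjusted p = 0.000431 in the left, and -1.43 ± 0.30, adjusted p = 0.000695 in the right), as did KERA. LUM, lumican, was lower at E9.5 in the left gonad (log2 -1.29 ± 0.23, adjusted p = 0.000214) and lower on the left than on the right at that stage (-0.76 ± 0.23, adjusted p = 0.0365). Between the sides at E9.5, 2 genes of this list were higher and 1 lower on the left, against 13% of all genes called. At E5, E6.5 and E8, 1, 0 and 0 were called, against 2.94%, 3.24% and 14.3%. Of 15 laminins, nidogens and other basement membrane partners, 4 were higher and 3 lower at E9.5 in the left gonad and 2 and 2 in the right, against the same shares of all genes. LAMB2 rose in both (log2 1.68 ± 0.24, adjusted p = 1.16e-05 in the left, and 1.62 ± 0.23, adjusted p = 1.82e-05 in the right), and LAMB1, its counterpart in early basement membranes, fell (-0.76 ± 0.17, adjusted p = 0.00136 in the left, and -0.58 ± 0.17, adjusted p = 0.00979 in the right). LAMB3, a laminin chain of the epithelial attachment sites that anchoring fibrils join, was higher on the left at E8 (log2 1.95 ± 0.55, adjusted p = 0.0226) and at E9.5 (3.93 ± 0.64, adjusted p = 0.000634). It averaged 3.63 ± 0.868 against 0.218 ± 0.272 CPM at E9.5 in left against right libraries. Of the 15 basement membrane partners, 1 was higher and 1 lower on the left at E8, against 14.3% of all genes called. At E9.5, 2 were higher and 1 lower, against 13%, and at E5 and E6.5 0 were called.

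Of 19 collagen receptors and breakdown enzymes tested, 4 were higher and 5 lower at E9.5 in the left gonad and 5 and 6 in the right, against 34.2% and 37.5% of all genes called. The collagen-binding integrin chains ITGA2 and ITGA11 rose in both. ITGA2 stood at 134 ± 11.96 against 34.8 ± 9.52 CPM in the left gonad (log2 1.95 ± 0.20, adjusted p = 1.49e-07) and 110.3 ± 11.5 against 17.9 ± 2.26 CPM in the right (2.62 ± 0.20, adjusted p = 4.28e-09). ITGA11 stood at 16.6 ± 2.84 against 1.75 ± 0.489 CPM in the left (3.24 ± 0.29, adjusted p = 3.16e-08) and 14.8 ± 4.71 against 2.80 ± 0.360 CPM in the right (2.39 ± 0.28, adjusted p = 1.09e-06). MMP2, a gelatinase, fell in both (log2 -1.68 ± 0.12, adjusted p = 1.20e-09 in the left, and -1.86 ± 0.12, adjusted p = 3.49e-10 in the right). Between the sides all called genes of this list were lower on the left, 2 at E6.5, 5 at E8 and 5 at E9.5, except at E5, where ITGA2 was higher (log2 0.96 ± 0.20, adjusted p = 0.00851) and MMP2 lower. Of all genes 2.94%, 3.24%, 14.3% and 13% were called at E5, E6.5, E8 and E9.5. MMP2 averaged 486 ± 43.7 against 764 ± 51.2 CPM at E5 in left against right libraries (log2 -0.65 ± 0.12, adjusted p = 0.00276) and 198 ± 13.04 against 278 ± 13.8 CPM at E6.5 (-0.49 ± 0.12, adjusted p = 0.0239). It averaged 157 ± 6.21 against 287 ± 20.2 CPM at E8 (-0.87 ± 0.12, adjusted p = 6.61e-05) and 151 ± 23.4 against 211 ± 35.8 CPM at E9.5 (-0.48 ± 0.12, adjusted p = 0.0118). TIMP2, an inhibitor of these enzymes, was lower on the left at E8 (log2 -1.59 ± 0.45, adjusted p = 0.0234) and E9.5 (-1.71 ± 0.45, adjusted p = 0.0191). The list had a median of -0.30, -0.28, -0.48 and -0.48 over the 4 stages between the sides, and 4 of 8 stroma markers at E8 and at E9.5 and 1 and 5 of 15 kidney markers were lower on the left as well. At E5 and E6.5, 2 and 1 of 8 stroma markers were lower on the left, and 1 of 15 kidney markers was higher at both. Their part in these lists was not tested.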

How the data were processed

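Read counts per gene, as the authors deposited them in 1 table for the 24 libraries, were used without change. They are raw counts by their values, and the submitters' processing notes name Trim Galore 0.6.7, STAR 2.7.10a, HTSeq 2.0.0 and the GRCg6a build. Neither strand setting nor counting mode is given in the sources used here, so reads of overlapping genes and of near-identical copies cannot be told apart.

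Genes were filtered with edgeR's filterByExpr (minimum count 10, minimum total 15), which left 16694, scaled by TMM, and tested with edgeR 4.0.16's quasi-likelihood test (R 4.3.3, limma 3.58.1) in 1 fit of 8 groups with no covariate. Its common biological coefficient of variation was 0.212. There were 8 comparisons. They set left against right at 4 stages and E9.5 against E5 within a side, tested the difference between these, and asked with an F test whether the left-right difference depended on the stage, with p-values adjusted over all genes within a comparison. The steps were tested on simulated data. Replicate libraries of a group differed beyond sampling noise, so precision depended on this spread as well as on the total counts per library.

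Same-numbered left and right libraries deviated together from their group means in all 3 pairs at E5 (correlations 0.351 to 0.524) and E9.5 (0.275 to 0.422), so their numbers were taken to pair them at these stages, from the data and not from the labels. At E6.5 (-0.162 to 0.532) and E8 (-0.023 to 0.129) they were not.

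Per-library values are given for members called in any comparison with an average of at least 2 CPM and a called log2 fold change of at least 1 in size, for the 3 members with most reads, and for COL12A1 and COL14A1. The members, classes and lists were chosen with earlier results of these data known. COL4A1, COL6A1, COL6A2, COL15A1, LAMB3 and the near-name rows were given values after these were seen, outside this rule. Alternatives were median-ratio scaling, no filter, DESeq2 1.42.0, a replicate block, a fit of the compared libraries alone, the mesonephros markers as a covariate, leaving out the 2 libraries with liver transcripts, and leaving out each library. The fit without the 3 libraries with most mesonephros transcripts was chosen after seeing the data. At E8 and E9.5 the summed mesonephros markers did not overlap between the sides, so the covariate and the side cannot be told apart there. Gene names matched RefSeq's GRCg7b symbols for all 41 members, which gave neighbouring genes. No coordinates or sequences are given.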

Additional observations from a re-analysis of the deposited data

Results flagged for a closer look

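The left-right difference of 3 collagens was called as depending on the stage. For COL14A1 it was -1.15 ± 0.17 on the log2 scale at E9.5 and 0.16 ± 0.17 at E5, and the test of the change between these stages gave -1.31 ± 0.24 (edgeR's quasi-likelihood test, adjusted p = 0.00459). The test over all 4 stages called COL14A1 as well (adjusted p = 0.0194). COL9A1 was called in that test (adjusted p = 0.0104), with log2 values of 1.40, 1.77, 0.46 and 0.57 at E5, E6.5, E8 and E9.5. COL25A1 was also called (adjusted p = 0.0367), with 0.13, 1.09, -0.48 and -1.74, so that the left gonad had the higher value at E6.5 and the lower one at E9.5. Its E6.5 value was not called by itself, but was with the mesonephros markers as a covariate (1.43, adjusted p = 0.0313). Its E9.5 call was lost without E9.5 right 2 (adjusted p = 0.0777) and with that covariate (-1.01, adjusted p = 0.199). Of 24 fits that left out 1 library, the test over the 4 stages was lost in 17 for COL25A1 and 6 for COL14A1. It was lost in 0 for COL9A1.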

How the results depend on the processing

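Of 76 calls on single members, all kept their call and direction under DESeq2 and the replicate block, and none reversed under any alternative. Median-ratio scaling ended 1 (COL16A1 in the left gonad), no filter 2 (that and COL4A3 at E9.5), and 50 held whichever library was left out. The mesonephros covariate ended 11 calls, leaving out the 2 libraries with liver transcripts 8, the 3 with most mesonephros transcripts 12, and fitting the compared libraries alone 12 of the 73 it could give. The counts of collagens called moved more, and the share of all genes called in the same fit is given in brackets. For DESeq2 this share is over all genes with any reads, so it cannot be set beside the shares of the filtered genes. With no filter, edgeR called 4 at E6.5 (1.82%). At E5 (5 called, 2.94%) the block gave 9 (4.88%) and the compared libraries alone 1 (1.44%). The fit without the libraries with liver transcripts gave 3 (2.83%), and leaving out single libraries 2 to 4 (1.39% to 2.43%). At E6.5 (4 called, 3.24%) DESeq2 gave 9 (3.42%), the block 12 (3 higher and 9 lower, 5.16%) and the compared libraries alone 2 (0.5%). The mesonephros covariate gave 7 (2.04%), the fit without the 3 libraries with most mesonephros transcripts 2 (1.12%), and leaving out single libraries 2 to 6 (1.16% to 3.36%). At E8 (6 called, 3 higher and 3 lower on the left, 14.3%) the block gave 18 (5 and 13, 20.4%). The compared libraries alone gave 16 (21.2%), and leaving out single libraries 3 to 5 (7.94% to 11.7%). At E9.5 (9 called, 13%) the block gave 13 (20%) and leaving out single libraries 4 to 9 (5.97% to 13.7%). Between E9.5 and E5 (24 called in each gonad, 34.2% left and 37.5% right) leaving out single libraries gave 21 to 23 (27.9% to 30.8%) for the left gonad. It gave 21 to 27 (30.1% to 37.4%) for the right. For the change of the left-right difference between E9.5 and E5 (1 called, 2.2%), DESeq2 gave 3 (2.93%) and the block 4 (4.15%). The fit without the libraries with liver transcripts gave 2 (2.45%), and leaving out single libraries 1 to 5 (1.44% to 2.44%). For the test over the 4 stages (3 called, 2.05%), DESeq2 gave 5 (3.63%). The fit without the 3 libraries with most mesonephros transcripts gave 1 (1.51%), and leaving out single libraries 1 to 4 (1.15% to 2.12%). With COL15A1 and COL18A1 moved to the other collagens, basement membrane members called in the right gonad between E9.5 and E5 were 3, not 5. At E6.5 and E8, and between stages, the libraries share only a number. Of 6 libraries per stage, 6 at E5, 3 at E6.5, 4 at E8 and 6 at E9.5 correlated best with their own number on the other side. The cause of these shifts was not tested.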

Other observations

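The table also held COL7A1L and COL2A1L, which the name rule left out. COL7A1L fell in both gonads, to 43.7 ± 6.72 CPM at E9.5 in the left gonad, against 857 ± 154 CPM at E5 (SD, n = 3 each; log2 -4.29 ± 0.25, adjusted p = 5.59e-11 by edgeR), and to 66.4 ± 24.6 against 822 ± 190.2 CPM in the right (-3.63 ± 0.24, adjusted p = 4.09e-10). In the same comparisons COL7A1 had log2 values of 1.42 (left) and 0.32 (right). At E8, COL7A1L was lower on the left (81.03 ± 2.61 CPM in left and 133 ± 11.9 CPM in right libraries; log2 -0.71 ± 0.22, adjusted p = 0.0333), where COL7A1 was higher. COL2A1L was lower on the left at E5 (48.8 ± 5.72 CPM in left and 96.7 ± 12.1 CPM in right libraries; log2 -0.99 ± 0.25, adjusted p = 0.0356), where COL2A1 was not called (log2 -0.24 ± 0.26, adjusted p = 0.875). Both rows fell with time, COL2A1L at log2 -1.08 ± 0.26, adjusted p = 0.00243 (left) and -1.81 ± 0.26, adjusted p = 1.56e-05 (right). Whether reads pass between these rows and their namesakes was not tested.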
